A study of Mus musculus with 4 samples.

Results

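The auxiliary subunits of voltage-gated calcium channels are encoded in the mouse by 4 beta genes (Cacnb1 to Cacnb4) and 4 alpha2-delta genes (Cacna2d1 to Cacna2d4). These 8 genes were taken by name from the 24453 genes counted, and all 8 were present in the files. The families were selected on earlier results of the same comparison, mutant against control, so the differences below describe the genes and support no statement about how they were picked. The RNA came from epidermal cells that were isolated at postnatal day 0 and sorted for EpCAM, Sca1 and high α6-integrin, a gate enriched for progenitors of the epidermis between hair follicles. The 2 mutant libraries carried the genotype Ring1a-/- Ring1b-/I53A: no Ring1 (protein Ring1a), and for Rnf2 (protein Ring1b) a null allele over the I53A allele, called I53A below. The 2 control libraries are labelled by genotype only as control, and the driver of any conditional deletion is not given in the sources used here. Ring1a and Ring1b are the catalytic subunits of Polycomb repressive complex 1, which ubiquitinates histone H2A and represses genes of other lineages, and I53A removes that catalytic activity. In the I53A libraries loss of Ring1, the null Rnf2 allele and the I53A allele come together, and their effects cannot be told apart. The Ring1 and Rnf2 alleles of the controls are not stated.

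A high-voltage-activated calcium channel has a pore-forming alpha1 subunit that opens when the membrane depolarises. The cytoplasmic beta subunit binds the linker between the first and second domains of the pore and promotes its delivery to the plasma membrane, and it sets how the channel opens and inactivates. The alpha2-delta subunit is largely extracellular, is anchored to the membrane and raises the number of channels at the surface. Both are best known from neurons, muscle and endocrine cells, and low-voltage-activated (T-type) pores can work without them. In keratinocytes, calcium controls the step from proliferation to differentiation.

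Total counts ran from 15505018 to 21543385 per library. Levels are in CPM, read counts scaled to library size and composition. Ring1 had 24.2 and 33.3 CPM in the control libraries and 2.54 and 2.91 CPM in the I53A libraries, which matches the labels for that gene. Rnf2, with a null allele in the mutants, was not lower there: 58.5 and 45.8 CPM in controls and 58.9 and 59.1 CPM in I53A. Counts per gene do not show which Rnf2 allele the reads came from. The basal keratinocyte markers Krt5, Krt14, Itga6, Itgb4, Trp63, Col17a1, Epcam and Ly6a were detected in every library, and none of the 8 passed the test. Their summed level was lower in both I53A libraries (22520 and 19360 CPM) than in the controls (27500 and 31580 CPM). Krt5 made up 59.4% to 67.2% of that sum. Krt5, Krt14 and Col17a1 lay below the controls without overlap, Itga6, Itgb4, Trp63 and Ly6a overlapped, and Epcam, a sort marker, was higher in both I53A libraries (107 and 85.9 against 133 and 159 CPM, adjusted p = 0.0635). Bulk RNA cannot tell fewer cells of a type from less RNA per cell. Replicates of a group are separate libraries, and no label says that they came from separate animals, so p-values measure the spread between these libraries only.

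In control epidermis the auxiliary subunit genes were expressed at very unequal levels. Per kilobase of exon, Cacnb3 had the highest control level at 20.5 ± 0.594 CPM per kb (SD, n = 2), 13.3 times that of Cacna2d2, which came next at 1.54 ± 0.117. Cacnb1 followed at 0.876 ± 0.0859 CPM per kb. The control libraries of these 3 genes did not overlap on this scale. Below them, Cacna2d1 (0.149 ± 0.0756), Cacnb2 (0.127 ± 0.0465), Cacnb4 (0.124 ± 0.050) and Cacna2d4 (0.100 ± 0.115) had overlapping control libraries from neighbour to neighbour, so their order was not resolved. Cacna2d3 had 0 counts in both control libraries, where 3 counts, the upper limit that a count of 0 allows, equal 0.179 and 0.199 CPM.

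The beta family was therefore mostly Cacnb3 and the alpha2-delta family mostly Cacna2d2. Cacnb3 held 95.1% and 94.4% of the summed beta level per kb in control replicates 1 and 2 and 92.5% and 93.1% in the I53A libraries. The I53A shares lay below both control shares, while the other beta genes held 5.22% of the family on average in controls and 7.20% in I53A. Cacna2d2 held 92.7% and 80.9% of the alpha2-delta level in controls and 84.9% and 82.0% in I53A, and these groups overlapped. Cacna2d1 held 6.09% and 10.1% in controls and 14.0% and 17.2% in I53A, without overlap.

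**Figure D1:**
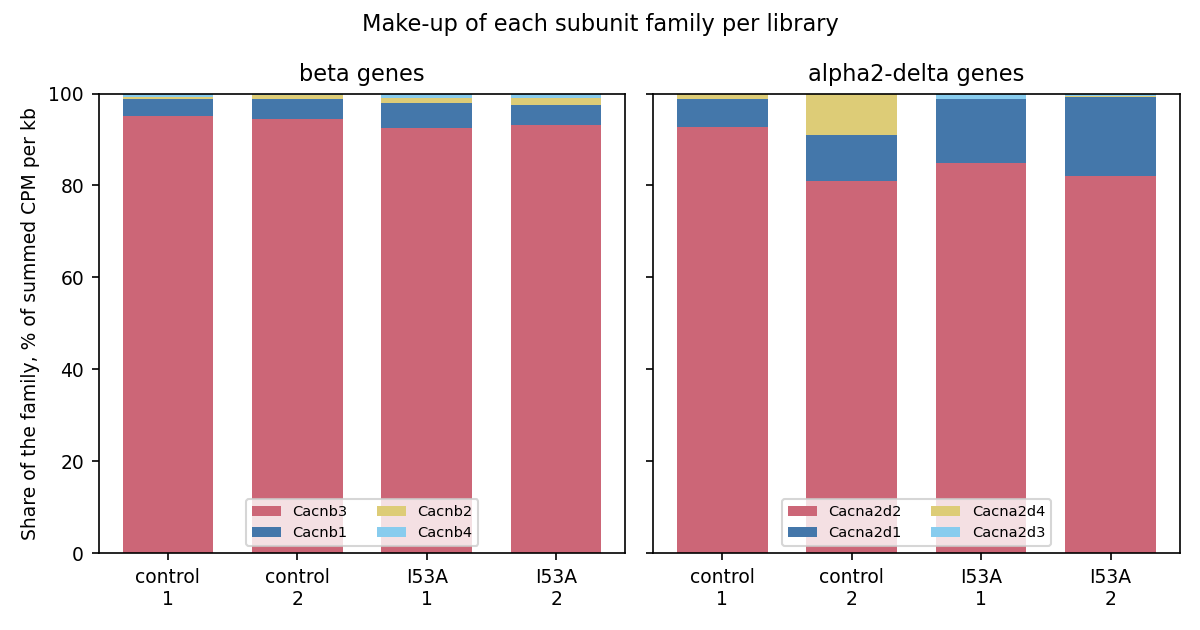
Share of each gene in the summed CPM per kb of its family, in percent, for each of the 4 libraries (left, beta genes; right, alpha2-delta genes). Cacnb3 makes up 92.5% to 95.1% of the beta bars and Cacna2d2 makes up 80.9% to 92.7% of the alpha2-delta bars.

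Promoter sequence, which played no part in choosing the genes, was compared for the 250 bases before each RefSeq transcription start (GRCm38.p6). Of the 8 genes 7 matched, with 12 start sites. Cacna2d4 did not match. All 7 genes had at least 1 CpG-rich start, with GC of at least 50% and a CpG observed-to-expected ratio of at least 0.6. This held for 8 of the 12 windows, against 31% of 32851 windows of the same length. The GC box letters GGGCGG, which themselves hold a CpG, were found on either strand in 7 windows (32.7% of all windows), and TATAAA in 0 (12.4% of all windows). The next sequences are shown because they carry this contrast: each of the 4 beta genes has a start with few CpGs (1 in Cacnb1, 3 in Cacnb2, 2 in Cacnb3 and 4 in Cacnb4) beside at least 1 with many, of which the most abundant member Cacnb3 and the sparse Cacnb2 serve as examples, and Cacna2d1 and the almost silent Cacna2d3 have dense ones. CpG dinucleotides are in capitals, and bases that GENCODE M21 places in an exon were left out. The first Cacnb3 window (chr15:98632078-98632327, plus strand, in an intron of longer annotated transcripts) holds 2 CpGs and the second (chr15:98634568-98634766, plus strand, intronic) holds 21 in the bases shown. The Cacnb2 window (chr2:14823842-14824025, plus strand, intronic) holds 3. The windows of Cacna2d1 (chr5:15934441-15934690, plus strand) and Cacna2d3 (chr14:29721865-29722114, minus strand) lie upstream of their genes and hold 36 and 30.
Cacnb3 first start: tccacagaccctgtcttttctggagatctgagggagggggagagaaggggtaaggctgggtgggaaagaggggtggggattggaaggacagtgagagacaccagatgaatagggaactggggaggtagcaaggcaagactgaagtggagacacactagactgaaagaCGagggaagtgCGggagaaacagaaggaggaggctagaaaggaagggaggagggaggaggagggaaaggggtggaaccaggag
Cacnb3 second start: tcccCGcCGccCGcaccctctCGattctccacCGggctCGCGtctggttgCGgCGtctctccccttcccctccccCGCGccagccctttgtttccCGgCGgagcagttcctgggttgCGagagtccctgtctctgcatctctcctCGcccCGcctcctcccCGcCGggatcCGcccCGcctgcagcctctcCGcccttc
Cacnb2 second start: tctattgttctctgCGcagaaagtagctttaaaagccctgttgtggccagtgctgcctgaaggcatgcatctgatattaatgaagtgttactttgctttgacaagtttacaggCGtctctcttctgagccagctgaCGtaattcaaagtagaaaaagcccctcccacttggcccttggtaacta
Cacna2d1: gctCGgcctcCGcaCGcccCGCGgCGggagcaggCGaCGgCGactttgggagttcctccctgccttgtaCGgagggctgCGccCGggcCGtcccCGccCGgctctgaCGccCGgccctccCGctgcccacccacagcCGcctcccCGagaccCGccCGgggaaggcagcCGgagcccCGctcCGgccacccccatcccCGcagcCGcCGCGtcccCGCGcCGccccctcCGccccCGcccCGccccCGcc
Cacna2d3: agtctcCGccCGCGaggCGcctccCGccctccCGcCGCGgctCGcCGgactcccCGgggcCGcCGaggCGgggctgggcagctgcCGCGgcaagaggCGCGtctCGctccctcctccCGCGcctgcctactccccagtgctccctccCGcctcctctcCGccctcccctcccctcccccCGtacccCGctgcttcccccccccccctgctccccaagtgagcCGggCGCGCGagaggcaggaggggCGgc
The other Cacnb2 start holds 30 CpGs in its 250 bases and lies in an exon of a longer transcript, so it is not printed. Counts per gene do not show which of these starts the reads came from.

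The beta genes had higher levels in I53A than in control epidermis, and for Cacnb2 and Cacnb3 the difference passed the threshold of an adjusted p under 0.05 over all 14550 genes tested. All 4 beta genes had both I53A libraries above both controls, as had 24.5% of all tested genes, while 23.5% had both below. Of the 4, 2 were called higher, against 5.68% of all tested genes, and none of the 4 was called lower, against 1.04%. The median log2 fold change of the 4 beta genes was 1.21, beside -0.01 for all tested genes. These counts come from the comparison on which the families were picked, so nothing is read from them.

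Cacnb3 encodes the beta3 subunit, known from neurons and smooth muscle. The gene lies on chromosome 15 from 98630840 to 98644529 on the plus strand of GRCm38 (mm10). In controls Cacnb3 stood at 83.8 and 80.4 CPM and in I53A at 132 and 123 CPM (replicates 1 and 2 of each), from 1408, 1214, 2068 and 2796 counts. Both groups were tight and did not overlap. Cacnb3 rose by 0.63 ± 0.14 on the log2 scale (SE; edgeR quasi-likelihood test, adjusted p = 0.0243), from a mean of 82.1 ± 2.38 to 127 ± 5.90 CPM (SD, n = 2 each). When GC content and length of the transcripts entered as offsets, the value was 0.23 ± 0.15 and the call was lost (adjusted p = 0.369), and those offsets moved the median of all genes from -0.01 to -0.15. The longest Cacnb3 transcript is 61.3% GC, the highest of the 8 genes. Without control replicate 1 or 2 the log2 fold change was 0.66 or 0.60 and the call was also lost (adjusted p = 0.273 and 0.254).

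Cacnb2 encodes the beta2 subunit, the main beta subunit of cardiac L-type channels, and lies on chromosome 2 from 14603088 to 14987908 on the plus strand. It had 1.25 and 2.12 CPM in controls and 5.09 and 6.43 CPM in I53A, from 21, 32, 80 and 146 counts. The lower I53A library was above the higher control. Cacnb2 rose by 1.80 ± 0.46 on the log2 scale (SE; edgeR quasi-likelihood test, adjusted p = 0.0441), a 3.49-fold increase. The call depended on the fit: the default quasi-likelihood fit of this edgeR version, which was run first, gave an adjusted p of 0.0574 and no call, and the fit used here was taken after such results had been seen. It was also lost with limma-voom (adjusted p = 0.070) and without control replicate 1 (0.407), control replicate 2 (0.0978) or I53A replicate 2 (0.0804), and it held in 11 of 19 other settings. Over these 19 settings its log2 fold change stayed between 1.45 and 2.21.

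Cacnb1 encodes the beta1 subunit, which skeletal muscle needs to couple excitation to contraction, and its gene occupies 98001508 to 98023034 of chromosome 11, minus strand. Cacnb1 levels were 3.69 and 4.24 CPM in controls and 8.59 and 6.57 CPM in I53A. The groups did not overlap, with a log2 fold change of 0.92 ± 0.36 (SE; 95% interval 0.12 to 1.72; adjusted p = 0.195). Cacnb4 encodes the beta4 subunit, known from the cerebellum, and occupies 52428320 to 52676831 of chromosome 2, minus strand. It had 1.43 and 0.795 CPM in controls and 3.31 and 3.13 CPM in I53A, from 24, 12, 52 and 71 counts, again without overlap. Its log2 fold change of 1.5 ± 0.54 (SE) had a 95% interval from 0.31 to 2.70 and did not pass the test (adjusted p = 0.150). The antisense gene A430018G15Rik overlaps 16% of the exon bases of Cacnb4, and since the strand setting of the counting is not given, reads there cannot be assigned to either gene. The 95% intervals of Cacnb1, Cacnb2 and Cacnb4 each overlap that of Cacnb3 (0.32 to 0.95), and differences between the genes were not tested. Without Cacnb3 the summed beta level per kb went from 1.07 and 1.18 in controls to 2.65 and 2.29 in I53A.

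**Figure D2:**
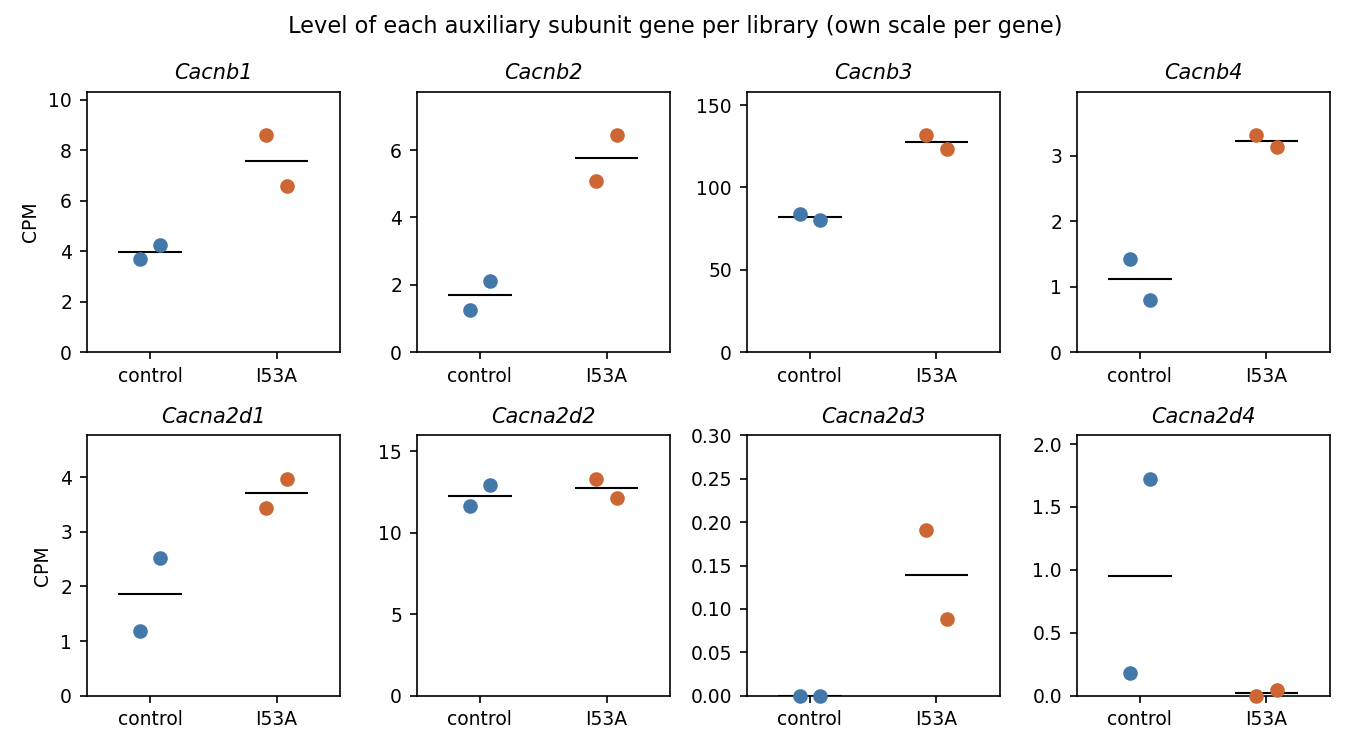
Level of each of the 8 genes in CPM, with a linear axis of its own from 0 in each panel. Points are single libraries (2 control, 2 I53A) and bars are group means: both I53A points lie above both control points for the 4 beta genes, Cacna2d1 and Cacna2d3, the groups overlap for Cacna2d2, and Cacna2d4 is lower in I53A with control points far apart.

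Of the alpha2-delta genes, none of the 4 was called in either direction, and 2 of them, Cacna2d3 and Cacna2d4, did not pass the low-count filter. The median log2 fold change of the 2 tested genes was 0.54, and their 95% intervals overlapped.

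Cacna2d2 encodes alpha2-delta-2, known from cerebellar Purkinje cells, and is a binding target of gabapentin. It lies on chromosome 9 from 107399612 to 107529343 on the plus strand. It had 11.6 and 12.9 CPM in controls and 13.3 and 12.1 CPM in I53A, so that the groups overlapped. The log2 fold change was 0.05 ± 0.25 (SE; 95% interval -0.51 to 0.61; adjusted p = 0.954), so changes of up to 0.61 on the log2 scale are within its error. Cacna2d1 encodes alpha2-delta-1, the subunit of muscle channels, also a receptor for thrombospondins and a target of gabapentin, and lies on chromosome 5 from 15934691 to 16374511 on the plus strand. It had 1.19 and 2.52 CPM in controls and 3.44 and 3.97 CPM in I53A. Its groups did not overlap, but the controls differed from each other by more than the I53A libraries did. The log2 fold change was 1.03 ± 0.50 (SE; 95% interval -0.08 to 2.14; adjusted p = 0.313).

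Cacna2d3 encodes alpha2-delta-3, known from neurons, and occupies 28904943 to 29721864 of chromosome 14, minus strand. It had 0 counts in both controls and 3 and 2 counts in I53A (0.191 and 0.0881 CPM). Neither level exceeded the 0.199 CPM that a count of 0 allows in control replicate 2, so no fold is given. Cacna2d4 encodes alpha2-delta-4 of the retina and lies on chromosome 6 from 119236526 to 119352407 on the plus strand. Control replicate 1 had 3 counts of it and control replicate 2 had 26, against 0 and 1 in I53A. Most control reads of Cacna2d4 came from control replicate 2, at 1.72 CPM against 0.179 CPM in replicate 1. The pooled counts were 34.9 times higher in controls, with a 95% counting interval from 5.79 to 1427 that leaves out the spread between libraries. These 2 genes host Lrtm1 and Lrtm2 on the opposite strand in their introns, with no shared exon base. Lrtm1 had 0 and 1 counts in controls and 0 and 29 in I53A, and Lrtm2 had 0 and 0 in controls and 8 and 6 in I53A.

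**Figure D3:**
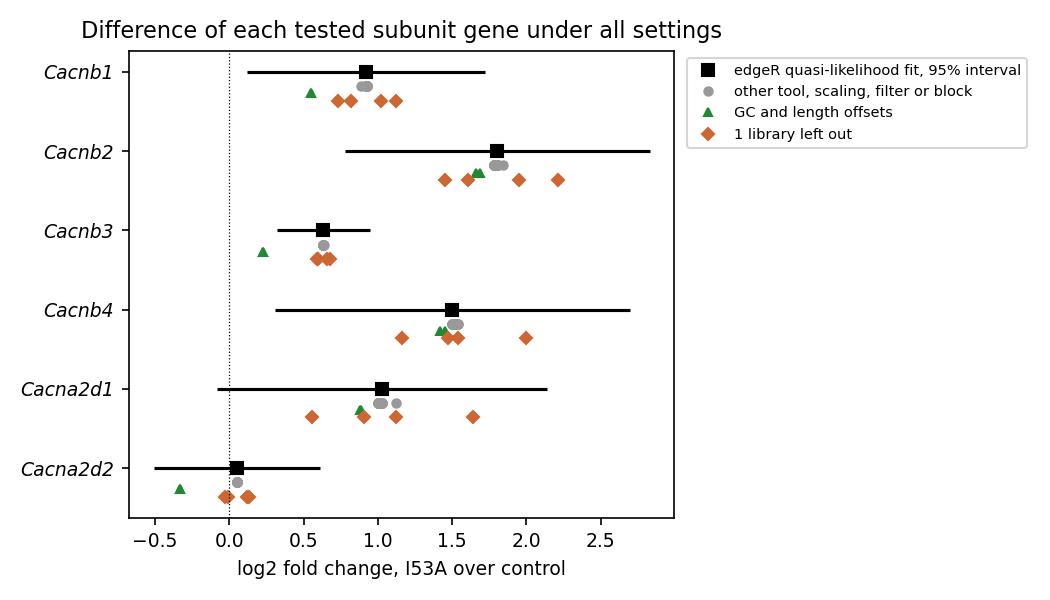
Log2 fold change, I53A over control, of the 6 tested genes. Squares with lines are the edgeR quasi-likelihood estimate with its 95% interval, and small symbols are the estimates under the 19 other settings: the GC and length offsets lower Cacnb3 to 0.23 and take Cacna2d2 to -0.33, and leaving out 1 library spreads the sparse genes most.

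The rest of the channel was compared through lists of related genes. Of 10 pore-forming genes 7 were tested, and 6 rose while none fell. The T-type pores Cacna1g and Cacna1h rose by log2 fold changes of 3.47 ± 0.25 and 4.74 ± 0.46 (SE, adjusted p = 5.73e-05 and 0.000249). The median of the list was 2.94, and the 6 of 7 called higher stand beside 5.68% of all tested genes. Without control replicate 1 or 2, 4 pore genes were called higher in each case. Of 8 gamma subunit genes 2 were tested, and Cacng4 rose from 17 and 5 counts in controls to 89 and 100 counts in I53A (2.84 ± 0.59 on the log2 scale, adjusted p = 0.0159). Its call was lost without control replicate 1 (adjusted p = 0.090) or 2 (0.124). Genes almost silent in controls enter the test only through the I53A libraries, so pore and gamma genes that stayed silent are not among those tested. The same limit holds for the lists that follow. There it reaches Rims2 (15 and 0 counts in controls) and the Merkel marker Atoh1 (2 and 0 counts in controls).

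Among 22 genes for proteins that bind or regulate these channels, such as the RGK proteins that inhibit through beta and the thrombospondins that bind alpha2-delta-1, 17 were tested, 2 rose and none fell. Thbs2, a thrombospondin, rose from 24.3 and 22.2 to 49.5 and 38.5 CPM (0.91 ± 0.20 on the log2 scale, adjusted p = 0.0208). This call too was lost without control replicate 1 (adjusted p = 0.188) or 2 (0.154). Rims2, a presynaptic scaffold that binds beta subunits, was called (log2 fold change 4.14 ± 1.00, adjusted p = 0.0346), but its levels were 0.893 and 0 CPM in controls and 2.67 and 13.1 CPM in I53A. Its call was lost with DESeq2 (adjusted p = 0.436), limma-voom (0.197) and without control replicate 1 (0.122), control replicate 2 (0.0568) or I53A replicate 2 (0.0638). Of 20 genes of calcium stores, store-operated entry and pumps 18 were tested, and 1 rose: Ryr1, the calcium release channel of skeletal muscle that L-type channels gate, went from 1.90 and 2.12 to 10.1 and 16.7 CPM (log2 fold change 2.76 ± 0.41, adjusted p = 0.0029; 0.0582 without control replicate 1). The medians of the last lists were 0.20 and 0.26. Over all tested genes 5.68% were called higher and 1.04% lower, and the store list, with 1 of 18, lay near that share.

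Summed per kb, the auxiliary and pore-forming genes moved by different amounts. The beta sum was 22.0 and 21.2 CPM per kb in controls and 35.5 and 33.0 in I53A, a 1.58-fold ratio of means. The alpha2-delta sum was 1.57 and 2.01 in controls and 1.97 and 1.86 in I53A, with overlap. The 7 high-voltage pore genes, which pair with these subunits, summed to 0.861 and 0.973 in controls and 3.12 and 3.18 in I53A, a 3.44-fold ratio. The beta sum was 25.5 and 21.9 times the high-voltage pore sum in controls and 11.4 and 10.4 times that sum in I53A. For alpha2-delta the same ratio was 1.83 and 2.07 in controls and 0.633 and 0.584 in I53A. The division of the pore genes into high and low voltage was made after their values were seen, and these sums have no test. They were not computed with the GC and length offsets. Under those offsets the log2 fold change of Cacnb3, most of the beta sum, went from 0.63 to 0.23.

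**Figure D4:**
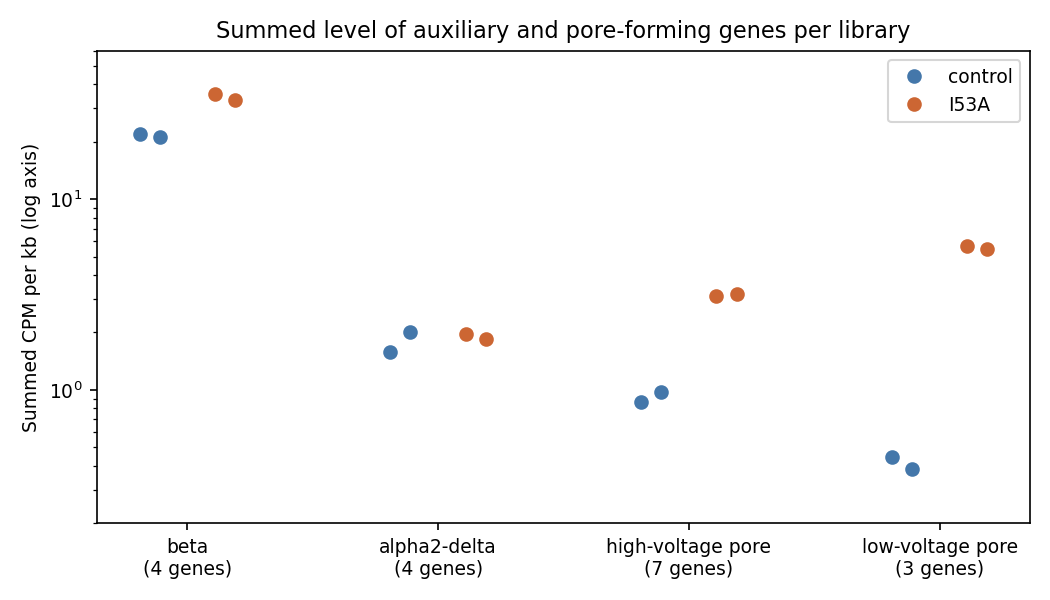
Summed CPM per kb, on a log axis, of the beta, alpha2-delta, high-voltage pore and low-voltage pore genes, 1 point per library (2 control, 2 I53A). The beta sums, mostly Cacnb3, stay highest (22.0 and 21.2 against 35.5 and 33.0), the alpha2-delta sums overlap between groups, and the low-voltage pore sums go from 0.444 and 0.387 to 5.69 and 5.45.

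Markers of other cell types that use these channels were set beside the results. Of 8 neuron markers 3 were tested and none was called, with sums of 2.68 and 2.58 CPM in controls and 6.49 and 5.29 CPM in I53A; Nefl was at 0 in all libraries, and Tubb3 and Elavl4 did not exceed 0.264 CPM. The higher neuron sum came from Rbfox3 (0.893 and 0.464 CPM in controls, 3.37 and 2.42 CPM in I53A, adjusted p = 0.0907) and Snap25 (0.357 and 0.795 against 1.78 and 1.37 CPM, adjusted p = 0.324), both without overlap, while Syp was lower in both I53A libraries (adjusted p = 0.809). Skeletal muscle markers (8 genes, 2 tested, none called, none at 0 in all libraries) summed to 4.05 and 3.71 CPM in controls. In I53A they summed to 0.700 and 3.44 CPM, so both I53A sums lay below both controls. Tnnt3 had 2.26 and 1.39 CPM in controls and 0 and 0.264 CPM in I53A (log2 fold change -3.51, edgeR quasi-likelihood test, adjusted p = 0.0549). Myh8, which was not tested, also lay below the controls, and the other muscle markers overlapped. Merkel cell markers (7 genes, 4 tested, none at 0 in all libraries) summed to 17.7 and 9.48 CPM in controls and 27 and 24.2 CPM in I53A. Of these the mechanosensitive channel gene Piezo2 was called (log2 fold change 1.44; adjusted p = 0.00924, and 0.090 and 0.0569 without control replicate 1 or 2). The other Merkel markers did not share 1 direction. Atoh1 had 0.119 and 0 CPM in controls and 0.827 and 0.661 CPM in I53A (adjusted p = 0.168). Krt20 (0 and 0 against 0.318 and 0.0441 CPM) and Isl1 (0.238 and 0 against 1.145 and 0.353 CPM) were also higher without overlap. So was Sox2 (0 and 0 against 0.0636 and 0.220 CPM), and none of Krt20, Isl1 and Sox2 passed the low-count filter. Krt8 was lower, with 3.57 and 1.32 against 0.191 and 0.661 CPM (adjusted p = 0.111), and Krt18 overlapped. Without Piezo2 the Merkel sums were 9.29 and 2.52 CPM in controls and 3.31 and 5.82 CPM in I53A, and they overlapped. In controls these sums were mostly Krt8 and Krt18 (Krt18 5.36 and 1.19 CPM in controls, 0.764 and 3.88 CPM in I53A). Fibroblast markers (6 genes, 6 tested, none at 0) summed to 1374 and 1444 CPM in controls and 2074 and 1862 CPM in I53A, with Dcn called (log2 fold change 0.60; adjusted p = 0.0446, and 0.159 and 0.499 without control replicate 1 or 2). Schwann cell markers (5 genes, 5 tested, none at 0) summed to 21.7 and 21.4 CPM in controls and 37.5 and 43.9 CPM in I53A, with Mbp called (log2 fold change 1.13; adjusted p = 0.0169, and 0.0612 and 0.165 without control replicate 1 or 2). The sums of the fibroblast, neuron and Schwann lists, and of the Merkel list through Piezo2, were thus higher in I53A, as were the beta genes, and their part in the beta differences was not tested. Smooth muscle and vessel, melanocyte and immune lists (7, 6 and 6 genes, of which 6, 4 and 4 were tested) had no called gene and sums that overlapped between the groups.

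Genes with the most similar pattern over the 4 libraries were found by the root mean square distance of log2 CPM values centred on the control mean. For Cacnb3 these were Camk2d (distance 0.020), Hebp2 (0.025) and Itm2a (0.028), of 12955 genes compared. For Cacnb2 they were Stfa2 (0.052), Nptx2 (0.075) and St3gal5 (0.077). With 4 libraries many genes have a broadly similar pattern: 1066 genes were within 0.25 of Cacnb3 and 113 within 0.25 of Cacnb2, a wider distance than that of the named genes.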

How the data were processed

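Back skin of newborn mice was digested, stained and sorted, RNA was amplified from 10 ng and single reads of 100 bases were sequenced, as the labels' protocols state. TopHat2 2.0.13, HTSeq 0.6.1, Cufflinks 2.2.1 and DESeq2 1.6.3 appear with mm10 in the submitters' processing notes. Which of them made the counts, with which annotation and strand setting, is not given in the sources used here. Deposited values are whole-number counts of reads for each gene symbol, without normalization.

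Members and gene lists were chosen with earlier results of these data known. Genes passing filterByExpr (minimum count 10, minimum total 15) were scaled with TMM and compared by the edgeR 4.0.16 quasi-likelihood test in R 4.3.3 (estimateDisp, then glmQLFit with legacy=FALSE). The test was two-sided, with p adjusted by Benjamini-Hochberg over all 14550 tested genes and a threshold of 0.05, and was tested on simulated data. The design named the test but not this setting. The default (legacy=TRUE) was run first and called 943 genes, without Cacnb2. Several fits were then compared, and legacy=FALSE, which calls 977, was taken because an earlier analysis of these data had called that number. That choice was made with the calls in view, and Cacnb2 passes under it. Replicate counts differed beyond sampling noise (chi-square per degree of freedom 13.1 and 41.8). CPM per kb divides by the union of GENCODE M21 exons (GRCm38, 97.4% of symbols matched). Promoters came from RefSeq (GRCm38.p6). Counting intervals are exact binomial at 95%, and floors and intervals cover counting error only. Patterns used log2(CPM + 0.5) over genes with a mean of at least 10 counts in each group, without predicted genes and clone names. The text names all 8 members, counted genes that overlap them (the pseudogene Gm13315, in an intron of Cacnb2, had 2, 4, 7 and 12 counts), Ring1, up to 2 called genes of each direction per list of smallest p, called markers, markers at 0 and the 3 most similar genes. Rnf2, also named by the rule, had 58.5, 45.8, 58.9 and 59.1 CPM. A430018G15Rik and, apart from markers at 0, the markers that were not called were named after their values were seen. The alternatives tried were limma-voom (limma 3.58.1), DESeq2 1.42.0, the other quasi-likelihood fits, other scalings and filters, the replicate number as a block, GC and length offsets (loess, span 0.5) and leaving out each library.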

Additional observations from a re-analysis of the deposited data

How the results depend on the processing

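Cacnb1, Cacnb2, Cacnb3, Cacnb4 and Cacna2d1 had a positive log2 fold change under all 19 other settings, and Cacna2d2 under 15. Cacna2d2 was -0.33 with the GC and length offsets, with and without the replicate block, and -0.03 to 0.13 with 1 library left out (-0.01 without I53A replicate 1); the cause was not tested. Of the 8 members, 2 were called higher; this was 1 with the GC and length offsets, alone and with the replicate block, and with limma-voom, and 0 to 2 with 1 library left out. Cacnb3 was lost with the offsets and Cacnb2 with limma-voom. The 6 other quasi-likelihood fits, like the longest-transcript lengths, were added after seeing the data, and the reported fit was itself picked among them with their calls known. The fit run first, this version's default, called 1 member, and so did the default with robust estimation, with dispersions estimated without the design and with trended dispersions: Cacnb2 had an adjusted p of 0.0574, 0.0524, 0.0576 and 0.0523 there. With a common dispersion (0.0463) and with robust estimation of the reported fit (0.0388) Cacnb2 passed. Cacnb3 passed in all 6, with adjusted p between 0.0233 and 0.0284. None was called lower under any setting.

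Over all genes 826 were higher and 151 lower. Leaving out 1 library gave 251 to 1198 higher and 38 to 404 lower genes. Lower genes numbered 232 with the replicate block and also with DESeq2, 664 with the offsets and 1250 with the offsets and the replicate block, where 710 and 1050 were higher. The replicate block changed no member's call (Cacnb2 1.78, Cacnb3 0.63). Same-numbered libraries share only a number: their deviations from the group means correlated at 0.0409 across genes. In the 4 related lists 10 genes were higher and 0 lower, with 4 to 14 higher and 0 to 2 lower when 1 library was left out, and 2 and 4 lower with the offsets and with the offsets and the block.

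Without division by length Cacnb3 held 92.4% of the beta family in controls and 88.5% in I53A (94.8% and 92.8% with it), and Cacna2d2 held 76.7% of the alpha2-delta family in I53A (83.4% with it), or 80.2% by the longest transcript. Depth limited Cacna2d3 and Cacna2d4, where 3 counts equal 0.132 to 0.199 CPM. With 1 library left out, the lone library of a group is assumed to vary like the other group.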
